A study of Mus musculus with 8 samples.

Results

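The 10 transcription factors (TFs) followed here were found by symbol among the 16486 genes of the expression table, and none of the 10 was missing. They are Nr4a1, Nr4a2 and Nr4a3, which encode orphan nuclear receptors, Spi1, which encodes the ETS factor PU.1, Klf2, Klf3, Klf4, Klf6 and Klf13, which encode Krüppel-like zinc finger factors, and Pou2f2, which encodes the octamer-binding factor OCT2. They were chosen by name as a set on the fate of blood monocytes (MCs), with earlier results of these data known. RNA-Seq had been run on MCs sorted from mouse blood as CD11b+ Ly6G- cells and split by Ly6C into Ly6Chigh (classical) and Ly6Clow (nonclassical) MCs. The 8 libraries were 2 CT Ly6Chigh, 2 CT Ly6Clow, and 1 Ly6Chigh and 1 Ly6Clow library each from T1DM and T2DM mice. CT mice were male C57/BL6 animals on chow, the T1DM model was the same strain given streptozotocin (STZ, a toxin of the insulin-producing cells) as 5 daily doses of 50 mg per kg at 8 weeks of age, and the T2DM model was the db/db mouse, which is homozygous for a leptin receptor mutation. Blood was taken at 20 to 22 weeks of age. RNA of 5 mice was pooled for each group, so a library is not 1 animal, the 2 CT libraries of a subset may be technical repeats, and p-values then measure only the spread between such libraries.

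MCs leave the bone marrow as Ly6Chigh cells, and part of them converts in the blood into Ly6Clow cells that patrol the vessel wall. Nr4a1 (Nur77) is known as the TF without which mice lose most Ly6Clow MCs, and it is also an immediate-early gene, as are Nr4a2 (Nurr1) and Nr4a3 (Nor1). PU.1 is required for the myeloid lineage as a whole, KLF4 and KLF2 are known for promoting MC differentiation and restraining inflammatory activation, and OCT2 is best known from B cells.

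The labelled subsets were checked with markers first. Of 7 classical MC markers, such as Ly6c2 and Ccr2, 7 had higher values in CT Ly6Chigh MCs, with a median log2FC of 5.13, and 6 of 8 nonclassical markers had higher values in CT Ly6Clow MCs. Some markers of other cell types also differed between the subsets. The 10 B cell markers summed to between 4099.5 and 5305 on the linear scale in the 4 Ly6Clow libraries against 263 to 536 in the 4 Ly6Chigh libraries, 8 NK cell markers to 179 to 918 against 28.2 to 129.7, and 8 T cell markers to 60.3 to 76.5 against 26.1 to 35.9. The sum of 6 neutrophil markers was 139 to 271 in the Ly6Clow against 432 to 807 in the Ly6Chigh libraries. Most of that sum was Csf3r, at 8.84 and 8.83 in the CT Ly6Chigh libraries, which is also on the list of genes tied to PU.1. By gene, 3 of the 6 had higher and 3 lower values in CT Ly6Chigh MCs, with a median log2FC of 0.014. The sums of 6 platelet markers (222 to 776 against 190 to 719) and 5 dendritic cell markers (75.1 to 123 against 66.4 to 77.3) overlapped. In bulk RNA, fewer cells of a type and less RNA per cell cannot be told apart. CT libraries were read on another sequencer than the diabetic libraries, so a difference from CT and the sequencer cannot be told apart, whereas T1DM and T2DM libraries shared 1 sequencer. Values are deposited log2 values, and a log2FC is a difference between them. The depth behind each value is unknown, because the table holds no counts.

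**Figure D1:**
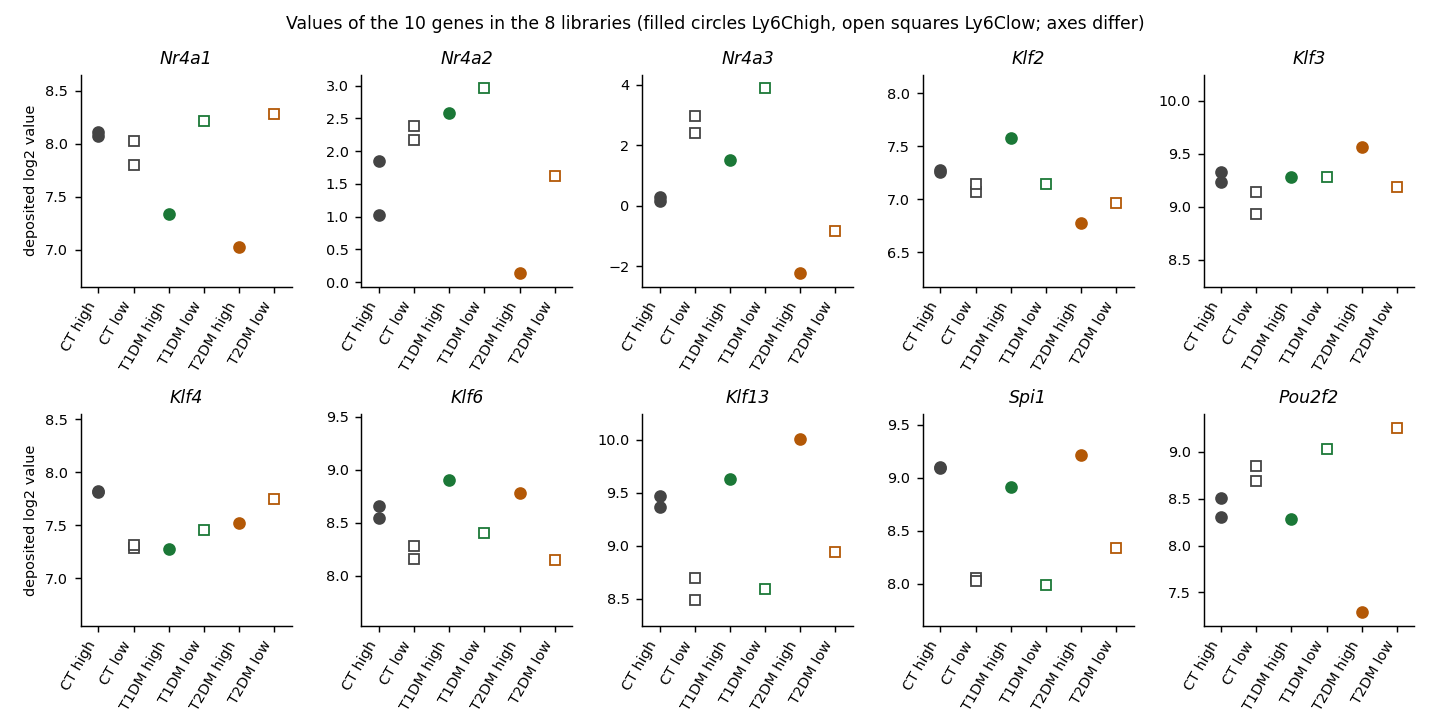
Deposited log2 value (vertical axis, which differs in position between panels) of each of the 10 genes in the 8 libraries, with filled circles for Ly6Chigh and open squares for Ly6Clow MCs, and 1 point per library. The T2DM library of Nr4a3 is the lowest of its subset in both subsets, at -2.22 in Ly6Chigh and -0.83 in Ly6Clow MCs, and Spi1 and Klf13 are above every Ly6Clow library in each Ly6Chigh library.

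Nr4a1 differed by 0.18 on the log2 scale between the CT subsets (95% interval -0.091 to 0.45), a value that turned to -0.11 under quantile normalization, and was lower in Ly6Chigh than in Ly6Clow MCs in both diabetic models. Its log2 value was 8.11 and 8.08 in the CT Ly6Chigh libraries and 7.80 and 8.02 in the CT Ly6Clow libraries. In T1DM it was 7.34 in Ly6Chigh and 8.21 in Ly6Clow MCs, and in T2DM it was 7.03 and 8.28. Both diabetic Ly6Chigh libraries were thus below both CT Ly6Chigh libraries, and both diabetic Ly6Clow libraries were above both CT Ly6Clow libraries. Against the CT mean of its subset the log2 difference was -0.76 in T1DM and -1.07 in T2DM Ly6Chigh MCs, a 1.69-fold and a 2.10-fold lower level, and 0.30 and 0.37 in Ly6Clow MCs. The CT replicates differed by 0.04 in Ly6Chigh and by 0.22 in Ly6Clow MCs. In the order of levels T2DM Ly6Clow, T1DM Ly6Clow, CT Ly6Chigh and CT Ly6Clow followed each other by steps no larger than the CT replicate gap, and only the steps down to T1DM Ly6Chigh and from there to T2DM Ly6Chigh were larger than it.

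The subset difference (Ly6Chigh minus Ly6Clow) of Nr4a1 was 0.18 in CT, -0.88 in T1DM and -1.25 in T2DM. Under quantile normalization these were -0.11, -1.10 and -1.51, all 3 below 0. Tested as the difference of the subset effect between diabetic and CT mice by limma, it came to a log2FC of -1.24 (SE 0.20, 95% interval -1.72 to -0.77). Only 0.109% of all genes had a smaller p, but the Benjamini-Hochberg adjusted p over all genes was 0.312, so the call was not made. Of the 10 members 0 passed in this comparison, as did 0.0% of all genes, while 3 of 10 had an unadjusted p under 0.05 against 6.58% of all genes. Those were Nr4a1, Klf4 and Pou2f2. Within Ly6Chigh MCs alone, Nr4a1 had a log2FC of -0.91 (SE 0.14) between diabetic and CT libraries with an adjusted p of 0.295, and 0 of 10 members and 0.0% of all genes passed, with 2 of 10 members and 4.48% of all genes at an unadjusted p under 0.05. With other settings or with 1 library or 1 diabetic model left out, the log2FC of the subset effect stayed between -1.43 and -1.06 and its adjusted p between 0.164 and 0.994.

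Nonclassical MC markers moved in the same libraries. All 8 of 8, among them Spn (CD43), Ace, Cd300e and Treml4, had a negative difference of the subset effect, with a median log2FC of -1.06 against 0.02 over all genes, and 0 of 8 passed the threshold in limma, with 4 of 8 at an unadjusted p under 0.05. In Ly6Chigh MCs their summed linear level was 2435 and 2455 for the CT libraries, 1889 for T1DM and 1258 for T2DM, against 2654 to 3621 in the 4 Ly6Clow libraries. Much of the CT Ly6Chigh sums came from Itgal, at log2 values of 10.16 and 10.11, and Cx3cr1, at 8.59 and 8.61. These had higher values in CT Ly6Chigh than in CT Ly6Clow MCs (log2FC 0.25 and 0.83), unlike the other 6 of the 8. The part of the nonclassical marker change in the Nr4a1 values was not tested. Immediate-early genes were read as a second list, since Nr4a1 is one of that class. Of 14 such genes 13 had a negative difference of the subset effect, with a median log2FC of -0.50, and 0 of 14 passed, with 2 of 14 at an unadjusted p under 0.05. Within Ly6Chigh MCs 6 had higher and 8 lower values in diabetic than in CT libraries, with a median log2FC of -0.12. Within Ly6Clow MCs 12 of 14 had higher values, with a median of 0.36. Egr2 (log2FC -2.98, SE 0.75, adjusted p 0.597 by limma) and Egr1 (-1.41, SE 0.70, adjusted p 0.804), zinc finger factors of that list, had their lowest values of the 8 libraries in T1DM Ly6Chigh MCs, at -0.15 and 3.14. In that library 5 of the 14 genes were above and 9 below the CT mean of the subset. In T2DM Ly6Chigh MCs Egr1 was at 4.89, above the CT Ly6Chigh libraries at 4.62 and 4.32.

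Nr4a3 was the member with the widest range, 6.09 log2 units over the 8 libraries. Its log2 value was 0.13 and 0.28 in CT Ly6Chigh and 2.97 and 2.41 in CT Ly6Clow MCs. In T1DM it was 1.505 in Ly6Chigh and 3.87 in Ly6Clow MCs, and in T2DM it was -2.22 and -0.83. In each mouse group the Ly6Clow value was the higher one, and in each subset T1DM was above and T2DM below both CT libraries. The 6 group levels ran from T1DM Ly6Clow over CT Ly6Clow, T1DM Ly6Chigh, CT Ly6Chigh and T2DM Ly6Clow to T2DM Ly6Chigh, with each step between 1.04 and 1.39 and larger than the CT replicate gap of 0.56. These are low levels, where few reads carry a large log2 step, and the sizes of the steps depended on it. With 1 added to every linear value, the subset difference of T2DM shrank from -1.39 to -0.36 and the difference of T1DM from CT in Ly6Chigh MCs from 1.30 to 0.83.

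Between the subsets, Nr4a3 was lower in Ly6Chigh MCs. Over the 8 libraries, with mouse group as a term, limma gave a log2FC of -2.18 (SE 0.35, adjusted p 0.00149), a 4.54-fold lower level, and it was the 1 member of 10 to pass, against 12.1% of all genes (7 of 10 members and 43.2% of all genes had an unadjusted p under 0.05). Without both T1DM libraries the log2FC was -2.12 and the adjusted p 0.0117, which ended the call, and over all alternatives the adjusted p ran from 0.0011 to 0.0117. Between the 2 CT groups alone the log2FC was -2.48 (SE 0.32), with an adjusted p of 0.0211, above the limit of 0.01.

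Between the diabetic models Nr4a3 fell by 4.22 on the log2 scale in T2DM against T1DM (SE 0.49, adjusted p 0.00375 by limma over both subsets), an 18.6-fold lower level. It was the 1 of 10 members to pass, against 0.588% of all genes. The call was lost without CT Ly6Clow replicate 1 (adjusted p 0.0122) or replicate 2 (adjusted p 0.0141), and with 1 added to every linear value the log2FC shrank to -2.49 (adjusted p 0.0233). Over all alternatives the adjusted p lay between 0.0023 and 0.0233. Against CT, with which both models share the control libraries, the log2FC was 1.24 (SE 0.43) in T1DM and -2.98 (SE 0.43) in T2DM, with an adjusted p of 0.9997 and of 0.0164.

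Nr4a2 had the same order of mouse groups within each subset. Its values were 1.85 and 1.02 in CT Ly6Chigh and 2.17 and 2.39 in CT Ly6Clow MCs. T1DM stood at 2.59 in Ly6Chigh and 2.96 in Ly6Clow MCs, and T2DM at 0.14 and 1.63. T1DM was above and T2DM below both CT libraries in both subsets, a pattern that Nr4a2 and Nr4a3 showed, 2 of 10 members, and 3.11% of all genes. The CT Ly6Chigh replicates of Nr4a2 were 0.83 apart, and of the steps between neighbouring group levels only the last, down to T2DM Ly6Chigh, was larger than that. T2DM against T1DM gave a log2FC of -1.89 (SE 0.46) and an adjusted p of 0.0897 by limma, which missed the limit.

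NK cell markers moved in the same libraries as Nr4a3 and Nr4a2. In T2DM against T1DM 8 of 8 NK markers had lower values and 6 were called, with a median log2FC of -2.51 against 0.00 over all genes. Among those called, Gzmb, a granzyme, fell by 2.99 (SE 0.22, adjusted p 0.0004 by limma). Over both subsets against CT, 8 of 8 had higher values in T1DM (median log2FC 0.46, 0 called, 3 at an unadjusted p under 0.05) and 8 of 8 lower values in T2DM (median -1.98, 4 called, 8 at an unadjusted p under 0.05). In Ly6Chigh MCs their summed linear level was 98.1 and 103 for the CT libraries, 129.7 for T1DM and 28.2 for T2DM. In Ly6Clow MCs it was 665 and 655 for the CT libraries, 918 for T1DM and 179 for T2DM. The genes whose mean-centred values over the 8 libraries came closest to those of Nr4a3, out of the 5228 genes whose log2 values averaged 5 or more, were Il2rb, Gzma and Klrk1, with root mean square differences of 0.87, 0.88 and 0.95 against an SD of 1.92 for Nr4a3 itself. Gzma and Klrk1 are on the NK list. Platelet markers showed the same order: 6 of 6 had higher values in T1DM and 6 of 6 lower values in T2DM than in CT, with median log2FC of 0.75 and -0.70, 0 called in either. The part of other cells in the Nr4a3 and Nr4a2 values was not tested.

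**Figure D2:**
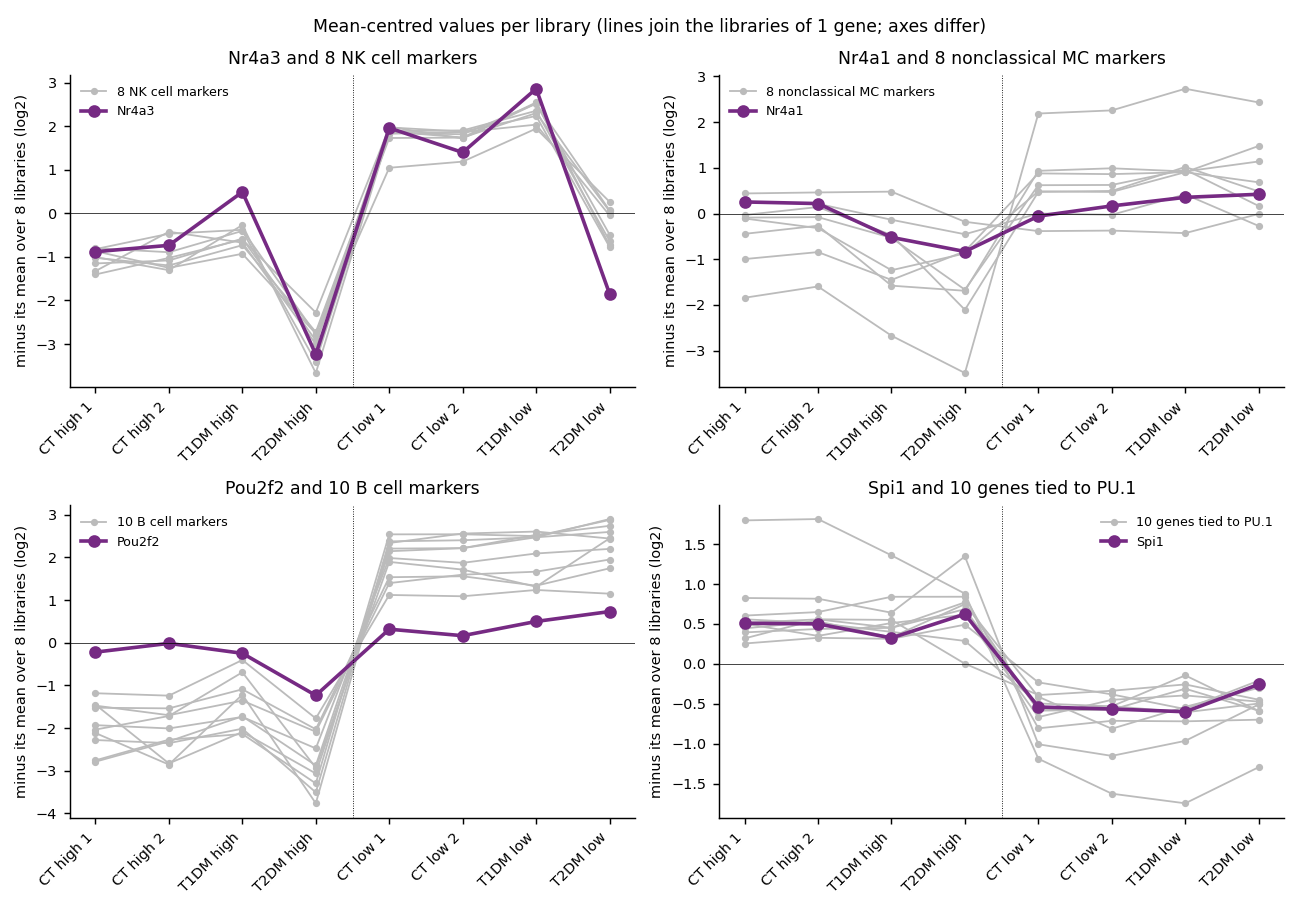
Mean-centred log2 values (vertical axis) of Nr4a3 with 8 NK cell markers, Nr4a1 with 8 nonclassical MC markers, Pou2f2 with 10 B cell markers and Spi1 with 10 genes tied to PU.1, by library, with 1 line per gene and a dotted line between Ly6Chigh (left) and Ly6Clow (right). Nr4a3 and the NK markers are lowest in the T2DM Ly6Chigh and highest in the T1DM Ly6Clow library, Pou2f2 moves over a range of 1.97 against steps of several log2 units for B cell markers, and Spi1 lies above its mean in every Ly6Chigh and below it in every Ly6Clow library.

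The 3 Nr4a promoters are shown because each holds the same short string of letters several times, while Nr4a1 had another pattern across the libraries than Nr4a2 and Nr4a3. Each sequence holds the 250 bases before the gene's start in RefSeq (GRCm38.p6), 5′ to 3′ on the gene's strand, with the letters TGACG or their reverse complement CGTCA, the short form of a cAMP response element, in capitals. They lie at chr15:101266596-101266845 on the plus strand, chr2:57124004-57124253 on the minus strand and chr4:48045055-48045304 on the plus strand. By the gene spans of GENCODE M21, the Nr4a1 stretch lies within the gene and the Nr4a3 stretch reaches into it. The Nr4a2 stretch lies just before the gene.
Nr4a1: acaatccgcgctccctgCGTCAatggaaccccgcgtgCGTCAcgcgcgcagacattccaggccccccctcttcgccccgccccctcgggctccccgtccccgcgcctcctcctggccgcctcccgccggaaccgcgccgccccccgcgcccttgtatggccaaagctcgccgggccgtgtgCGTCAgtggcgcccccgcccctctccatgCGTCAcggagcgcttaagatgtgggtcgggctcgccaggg
Nr4a2: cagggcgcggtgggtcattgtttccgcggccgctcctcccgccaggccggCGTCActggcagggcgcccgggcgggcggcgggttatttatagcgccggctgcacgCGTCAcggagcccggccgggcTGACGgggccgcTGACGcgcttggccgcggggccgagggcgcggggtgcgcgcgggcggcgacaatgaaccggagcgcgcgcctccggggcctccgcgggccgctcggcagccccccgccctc
Nr4a3: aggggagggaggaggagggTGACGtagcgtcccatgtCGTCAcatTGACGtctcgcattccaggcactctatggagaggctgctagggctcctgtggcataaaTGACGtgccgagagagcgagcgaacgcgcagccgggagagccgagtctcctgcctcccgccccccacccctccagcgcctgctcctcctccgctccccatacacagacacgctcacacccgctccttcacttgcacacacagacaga
Each of the 3 holds 4 such matches, counted on both strands. Of 27025 RefSeq promoters of the same length, 17.9% hold at least 1 and 0.152% hold 4 or more. Among the 6 other members with a promoter in the table, Klf2, Klf4 and Klf13 hold 1 each and Klf3, Klf6 and Pou2f2 none. Spi1 was not in the promoter table. A match is a description of letters and not a binding site.

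Spi1 was higher in Ly6Chigh MCs in all 3 mouse groups. Its log2 value was 9.10 and 9.09 in CT Ly6Chigh and 8.05 and 8.03 in CT Ly6Clow MCs. In T1DM it was 8.92 against 7.99, and in T2DM 9.21 against 8.33. Every Ly6Chigh library was above every Ly6Clow library. Between the CT subsets limma gave a log2FC of 1.06 (SE 0.04, adjusted p 0.00385), a 2.08-fold higher level, and Spi1 was the 1 of 10 members to pass, against 3.52% of all genes (6 of 10 members and 37.7% of all genes had an unadjusted p under 0.05). In the fit of 8 libraries the log2FC was 0.98 (SE 0.07, adjusted p 2.11e-05), which passed the limit on p and fell short of the fold limit of 1. With any 1 of the 4 CT libraries left out, the CT log2FC stayed between 1.04 and 1.07, while the adjusted p rose to between 0.0633 and 0.0847 and 0 genes of the whole table passed. Under quantile normalization it was 0.77 (adjusted p 0.0022), below the fold limit, and over all alternatives the adjusted p ran from 0.0004 to 0.0847.

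Between mouse groups the Spi1 values stood in the same order in both subsets, T2DM above both CT libraries and T1DM below both. Spi1 was the 1 member of 10 with this order, which 2.32% of all genes had. The differences from the CT mean were small, -0.18 in T1DM and 0.12 in T2DM Ly6Chigh MCs and -0.05 and 0.30 in Ly6Clow MCs, and the CT replicates differed by 0.01 and 0.03. T2DM against T1DM gave a log2FC of 0.32 (SE 0.10) with an adjusted p of 0.196, and the subset effect of diabetic minus CT mice was -0.16 with a 95% interval from -0.66 to 0.35.

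Genes tied to PU.1 in myeloid cells moved with the subset as Spi1 did. All 10 of 10 had higher values in CT Ly6Chigh than in CT Ly6Clow MCs, with a median log2FC of 1.07 against -0.09 over all genes, and 5 of 10 passed. They were Fcgr1 (CD64, a high-affinity IgG receptor; log2FC 3.21, SE 0.19), Csf3r (the G-CSF receptor; 1.90, SE 0.07), Tyrobp (the adaptor DAP12; 1.39, SE 0.05), Cybb (the NADPH oxidase subunit gp91phox; 1.09, SE 0.03) and Cd68. The summed linear level of the 10 genes was between 9558 and 10576 in Ly6Chigh and between 4594 and 4931 in Ly6Clow libraries. B cell and NK cell markers had the higher sums in the Ly6Clow libraries. The part of other cells in the subset differences of Spi1, Klf13 and these genes was not tested. Among factors related to PU.1 or working with it, Cebpa and Spib passed between the CT subsets and Irf8 and Irf4 did not. Cebpa, a granulocyte-monocyte factor, rose by 2.63 (SE 0.14, adjusted p 0.0059 by limma) in Ly6Chigh MCs. Spib, the nearest relative of Spi1 and a B cell factor, fell by 4.06 (SE 0.14, adjusted p 0.0038), in the libraries where B cell markers were low. Irf8, a partner of PU.1 in DNA binding, had a log2FC of 0.41 (SE 0.12) and an adjusted p of 0.092, and Irf4 one of 0.05 (SE 0.11).

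**Figure D3:**
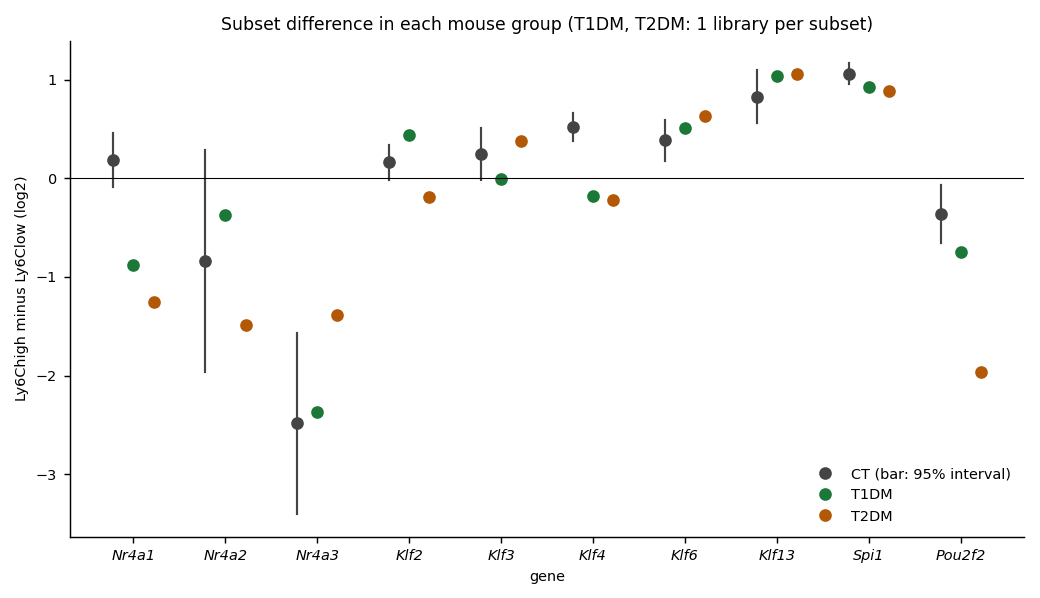
Ly6Chigh minus Ly6Clow log2 difference (vertical axis) of each gene in CT (2 libraries per subset, bar for the 95% interval of limma), T1DM and T2DM mice (1 library per subset, no interval). Spi1, Klf13 and Klf6 are above 0 in all 3 mouse groups, Nr4a2, Nr4a3 and Pou2f2 below 0, and Nr4a1 and Klf4 stand at 0.18 and 0.52 in CT and below 0 in both diabetic models, where the CT value of Nr4a1 was itself below 0 (-0.11) under quantile normalization.

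Klf4 was higher in Ly6Chigh MCs of CT mice and lower in Ly6Chigh MCs of both diabetic models. Its log2 value was 7.83 and 7.81 in CT Ly6Chigh and 7.29 and 7.31 in CT Ly6Clow MCs. In T1DM it was 7.28 in Ly6Chigh and 7.46 in Ly6Clow MCs, and in T2DM it was 7.52 and 7.74. The CT subset difference of 0.52 thus stood against -0.18 for T1DM and -0.22 for T2DM. A positive subset difference in CT with a negative one in both models was found for 2 of 10 members, Nr4a1 and Klf4, and for 6.95% of all genes. With quantile-normalized values Klf4 kept these signs, at 0.25 in CT, -0.37 in T1DM and -0.46 in T2DM, and Nr4a1 did not. Between the CT subsets the adjusted p of Klf4 was 0.0123 (log2FC 0.52, SE 0.05). The difference of the subset effect was -0.72 (SE 0.20) with an adjusted p of 0.633. Both diabetic Ly6Chigh libraries were below both CT libraries and both diabetic Ly6Clow libraries above them in Nr4a1, Klf4 and Pou2f2, 3 of 10 members, against 4.39% of all genes, in a comparison where sequencer and diabetes cannot be told apart. For Nr4a1 in T1DM Ly6Clow and Pou2f2 in T1DM Ly6Chigh MCs, the gap to the nearer CT library was smaller than the CT replicate gap.

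Klf2 had a range of 0.80 over the 8 libraries. It was at 7.25 and 7.28 in CT Ly6Chigh and at 7.07 and 7.14 in CT Ly6Clow MCs. T1DM stood at 7.57 in Ly6Chigh and 7.14 in Ly6Clow MCs, and T2DM at 6.78 and 6.97. T2DM was below both CT libraries in both subsets, as it was for Nr4a2 and Nr4a3, together 3 of 10 members against 12.7% of all genes. The T1DM Ly6Chigh library was the highest and the T2DM Ly6Chigh library the lowest of the 8. T2DM against T1DM had a log2FC of -0.49 (SE 0.16, 95% interval -0.84 to -0.13) and an adjusted p of 0.196. Of 5 measured genes of 6 tied to KLF2 and KLF4, 1 fell in CT Ly6Chigh MCs, the lymphocyte egress receptor S1pr1 (log2FC -3.84, SE 0.11, adjusted p 0.0032 by limma), in the libraries where B cell markers were low. The other 4 had higher values there and were not called, the median of the 5 was 0.64 against -0.09 over all genes, and 5 of 5 had an unadjusted p under 0.05. In all 8 libraries Cd14, the co-receptor for lipopolysaccharide, also passed and was higher in Ly6Chigh MCs (log2FC 1.87, SE 0.20, adjusted p 0.00016).

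Klf13, a factor of the Sp1-like branch, had the subset difference nearest to that of Spi1. It had log2 values of 9.36 and 9.47 in CT Ly6Chigh and 8.70 and 8.49 in CT Ly6Clow MCs. In T1DM it was 9.63 against 8.59, and in T2DM 10.004 against 8.95. Klf13, Klf6 and Spi1 had every Ly6Chigh library above every Ly6Clow library, 3 of 10 members against 16.4% of all genes. Over the 8 libraries the log2FC was 0.94 (SE 0.08, adjusted p 6.35e-05), below the fold limit, and between the CT subsets it was 0.83 (SE 0.09, adjusted p 0.0171). Without CT Ly6Clow replicate 1 the former was 1.002 (adjusted p 0.0002), which passed both limits. Under quantile normalization it was 0.58, and the CT value 0.48. T2DM was above both CT libraries in both subsets, by 0.59 and 0.35 against the CT mean, in T2DM against CT with a log2FC of 0.47 (SE 0.10) and an adjusted p of 0.101. T2DM was above both CT libraries in both subsets in 3 of 10 members, Klf3, Klf13 and Spi1, and in 12.6% of all genes. In the same libraries 6 of 6 neutrophil markers had higher values than in CT (median log2FC 1.76, 0 called), and so did 7 of 7 classical MC markers (median 0.79, with F13a1, a coagulation factor subunit, called). Their sums in T2DM Ly6Chigh MCs were 807 for neutrophil markers, against 471 and 473 for the CT libraries, and 25568 for classical markers, against 9941 and 10091. Most of the neutrophil sums was Csf3r, at a log2 value of 9.36 in T2DM Ly6Chigh against 8.84 and 8.83 in CT Ly6Chigh MCs. The part of these markers in the Klf3, Klf13 and Spi1 values was not tested.

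Klf6, an immediate-early KLF gene, was at 8.55 and 8.66 in CT Ly6Chigh and at 8.28 and 8.16 in CT Ly6Clow MCs. It was at 8.91 and 8.40 in T1DM and at 8.78 and 8.15 in T2DM, with the Ly6Chigh value first. The subset difference grew from 0.38 in CT to 0.50 in T1DM and 0.63 in T2DM, but the difference of the subset effect, 0.18, had a 95% interval from -0.24 to 0.61. Over the 8 libraries the subset log2FC was 0.48 (SE 0.08, adjusted p 0.0022), under the fold limit. Quantile normalization lowered it to 0.19 (adjusted p 0.120) and the subset differences to 0.090 in CT, 0.27 in T1DM and 0.33 in T2DM. Klf3, a repressor that recruits CtBP, was at 9.33 and 9.24 in CT Ly6Chigh, 8.93 and 9.14 in CT Ly6Clow, 9.28 and 9.29 in T1DM and 9.57 and 9.19 in T2DM MCs. Its range over the 8 libraries was 0.64, second to the 0.55 of Klf4 as the narrowest of the 10, and only the step from T2DM Ly6Chigh to the next group exceeded the CT replicate gap of 0.21. Some Klf3 reads may be shared, since 4.53% of its 31-base sequences in GENCODE M21 occur in other genes, mostly the overlapping transcript Gm20033. Ctbp2, which encodes a co-repressor of KLF3, rose over the 8 libraries by 1.29 (SE 0.16, adjusted p 0.0004 by limma) in Ly6Chigh MCs, while Ctbp1 had a log2FC of 0.13 (SE 0.17).

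Of 12 other KLF genes 8 were measured, and between the CT subsets 0 of 8 passed in limma, with 1 of 8 at an unadjusted p under 0.05. Over the 8 libraries Klf10, a TGF-β-induced early gene, rose by 1.07 (SE 0.10, adjusted p 5.96e-05) and Klf5 fell by 2.44 (SE 0.52, adjusted p 0.0069) in Ly6Chigh MCs. Klf5 had values from -2.00 to 2.19 and was near the lower end of the table.

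Pou2f2 was the 1 member of 10 with every Ly6Clow library above every Ly6Chigh library, against 16.3% of all genes. It stood at a log2 value of 8.31 and 8.51 in CT Ly6Chigh and 8.84 and 8.69 in CT Ly6Clow MCs. In T1DM it was 8.28 in Ly6Chigh and 9.02 in Ly6Clow MCs, and in T2DM it was 7.29 and 9.26. The T2DM Ly6Chigh library was the lowest of the 8, 2.17-fold below the CT mean of its subset, where the T1DM library was within 0.03 of the nearer CT library. The subset difference was -0.36 in CT, -0.75 in T1DM and -1.97 in T2DM. For the 8 libraries together the subset log2FC was -0.86 (SE 0.24, adjusted p 0.0230), which missed the limit of 0.01. Under quantile normalization it was -1.18 (adjusted p 0.0041) and passed, and the CT subset difference was -0.68. The difference of the subset effect was -0.998 (SE 0.40, adjusted p 0.744).

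B cell markers moved with the subset as well. Between the CT subsets 10 of 10 had lower values in Ly6Chigh MCs and 9 were called, with a median log2FC of -4.11 against -0.09 over all genes. In T2DM Ly6Chigh MCs 10 of 10 were below the CT mean, with a median difference of -0.67 and no test. Pou2af1, the OCT2 coactivator of B cells, fell by 4.62 (SE 0.22, adjusted p 0.0053 by limma) in CT Ly6Chigh MCs. Of 6 genes tied to OCT2 in B cells 6 had lower values there and 5 were called. The called genes were Cd36, Cxcr5, Ms4a1, Ighm and Igkc, of which Ms4a1 and Ighm are also on the B cell list. Pou2f1, which encodes the widely expressed relative OCT1, did not pass, with an adjusted p of 0.0258 (log2FC -0.83, SE 0.12). In T1DM Ly6Chigh MCs 10 of 10 B cell markers were above the CT mean, with a median difference of 0.41 and no test. Pou2f2 was 0.13 below its CT mean there. It lay 0.03 below the nearer CT library, less than the 0.21 between the CT replicates. The part of B cell RNA in the Pou2f2 values was not tested.

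**Figure D4:**
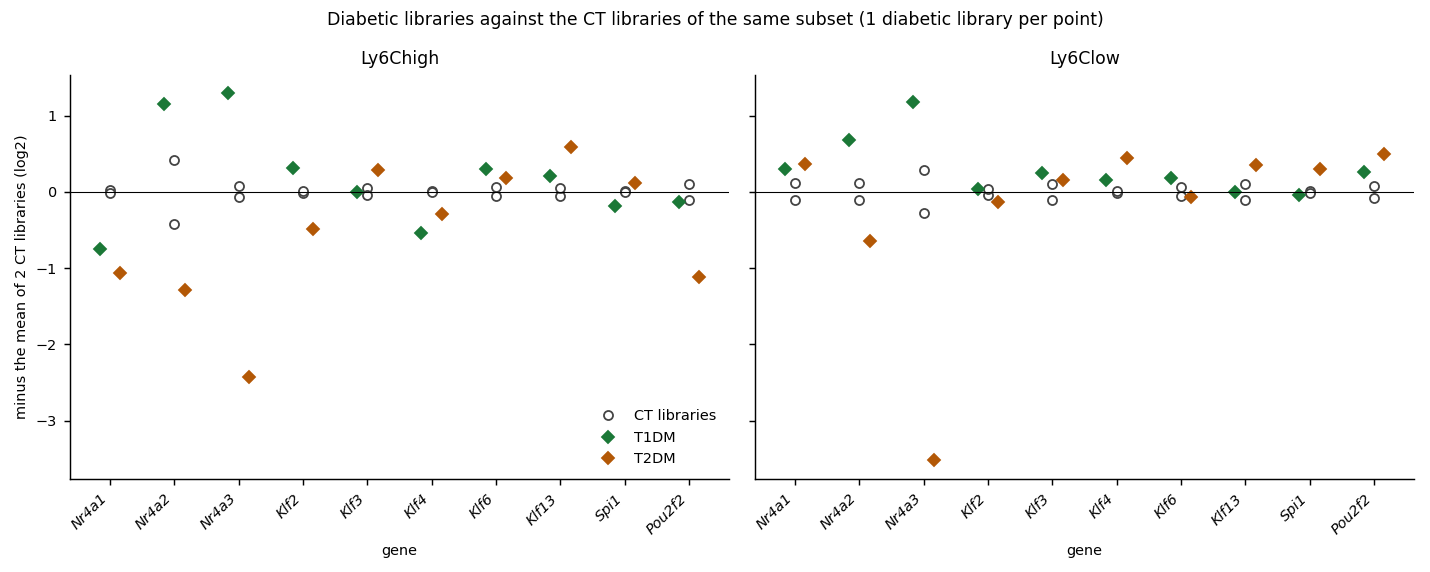
Log2 difference (vertical axis) of each T1DM and T2DM library (diamonds, 1 library each) and each CT library (open circles) from the mean of the 2 CT libraries of its subset, for the 10 genes, with Ly6Chigh on the left and Ly6Clow on the right. Nr4a1 lies below the CT libraries in Ly6Chigh and above them in Ly6Clow MCs in both models, and Nr4a3 goes up to 1.30 in T1DM and down to -3.52 in T2DM.

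Averaged over the subsets, no member passed against CT. In T1DM against CT 0 of 10 passed by limma, as did 0.0% of all genes, and 3 of 10 had an unadjusted p under 0.05 (Nr4a2, Nr4a3 and Klf6) against 3.34% of all genes. In T2DM against CT 0 of 10 passed, against 0.297% of all genes, and 5 of 10 had an unadjusted p under 0.05 (Nr4a2, Nr4a3, Klf2, Klf13 and Spi1) against 8.94%. Within Ly6Clow MCs 0 of 10 passed between diabetic and CT libraries, as did 0.0% of all genes, and 0 of 10 had an unadjusted p under 0.05, against 2.97%. In T2DM against T1DM the same 5 genes had an unadjusted p under 0.05, against 14.3% of all genes. Nr4a3 alone among the 10 differed by more than 1 on the log2 scale from the CT mean in all 4 diabetic libraries. Beside it, Nr4a2 did so in both Ly6Chigh libraries and Nr4a1 and Pou2f2 in T2DM Ly6Chigh MCs. That made 2 of 10 members in T1DM Ly6Chigh (10.1% of all genes), 4 of 10 in T2DM Ly6Chigh (13.8%), 1 of 10 in T1DM Ly6Clow (8.81%) and 1 of 10 in T2DM Ly6Clow MCs (10.8%). With 1 added to every linear value, the differences of the low genes in Ly6Chigh MCs were under 1, at 0.83 and -0.83 for Nr4a3 and 0.91 and -0.83 for Nr4a2, which left Nr4a1 and Pou2f2 in T2DM Ly6Chigh MCs and Nr4a3 in both Ly6Clow libraries.

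The genes of highest likeness to the other members were found by the same measure over the 8 libraries. For Nr4a1 they were Ssh1, Ptk2b and Stk10, with root mean square differences of 0.16, 0.19 and 0.19 against its own SD of 0.42. Nr4a2 came closest to Phkg1, Clic4 and Cd9, at 0.33 to 0.40 against 0.85. For Spi1 they were Arpc1b, an actin-nucleating subunit, Pitpna and Fxyd5, at 0.04, 0.04 and 0.06 against 0.50, the closest match of any member relative to its spread. For Pou2f2 they were Pik3ap1, Adgre4 and Ciita, the class II transactivator, at 0.18 to 0.19 against 0.56. Klf2 came closest to Rasgrp2, Luc7l3 and Hnrnpa1, Klf3 to Cdk2ap1, Copa and Rnpepl1, Klf4 to Nxpe1-ps, Cds2 and Plagl2, Klf6 to Uqcrc2, Spop and Mtfr1l, and Klf13 to Man2b1, Pgs1 and Ppt1. Among the members themselves the closest pair was Klf13 with Spi1, at 0.17.

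In the annotation of GENCODE M21 (GRCm38) the members lie apart on 7 chromosomes and are all protein-coding. Nr4a1 spans chr15:101254269-101274795, Nr4a2 chr2:57106830-57124003, Nr4a3 chr4:48045153-48086447 and Spi1 chr2:91082390-91115756. The KLF genes are Klf2 at chr8:72319033-72321656, Klf3 at chr5:64803388-64832901, Klf4 at chr4:55527143-55532466, Klf6 at chr13:5861482-5870394 and Klf13 at chr7:63886351-63938915, and Pou2f2 lies at chr7:25087344-25179726. Of their 31-base sequences, 0 to 2.00% occur in other genes, apart from the 4.53% of Klf3.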

How the data were processed

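Ly6Chigh and Ly6Clow MCs of CT, T1DM and T2DM mice were profiled by RNA-Seq, and the groups were taken from the labels. Transcripts were quantified by the authors with Kallisto (version 0.45), summarised to genes with tximport (version 1.12.3) under R version 3.6.1, and mm10 is named in the submitters' processing notes. The deposited table holds log2 expression values of 16486 genes. Its scaling, any filter on low genes and any adjustment between sequencers are not given in the sources used here. On the linear scale the values summed to between 1020068 and 1090019 in the Ly6Chigh and between 838696 and 878313 in the Ly6Clow libraries, and the CT replicates correlated across genes with r = 0.968 in both subsets. Such values are not counts, so limma 3.58.1 in R 4.3.3 (lmFit, eBayes with a variance trend) was used, tested first on simulated data.

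The fits covered the 4 CT libraries, all 8 libraries with subset and mouse group as terms (4 residual degrees of freedom), and all 8 in 4 cells of subset by CT or diabetic. Since T1DM and T2DM have 1 library per subset, the spread of the latter fits comes from CT replicates and from the departure from their terms, and single-library differences have no test. A gene was called at a Benjamini-Hochberg adjusted p under 0.01 over all genes, where the log2FC was also over 1 or under -1, as in the study. Genes named from a list are those called in the comparison at hand, at most 4 in each direction, factors with a stated tie to a member, and the 3 genes most alike per member. Egr1, Egr2, Spn, Ace, Cd300e, Treml4, Itgal, Cx3cr1, Ly6c2 and, in T2DM against CT, Csf3r, which had no call there, were named after their values were seen. The members and gene lists were chosen with earlier results of these data known. Promoters came from RefSeq (9 of 10 members matched) and gene positions from GENCODE M21. The alternatives were a filter at a mean log2 value of 1, 1 added on the linear scale, quantile normalization, no variance trend, an adjusted p limit of 0.05, a replicate block, and leaving out each CT library or 1 diabetic model. The values of some genes of the lists are not reported here.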

Additional observations from a re-analysis of the deposited data

Results flagged for a closer look

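The 6 results here were picked out because the groups went apart, either by a test of the difference or because both libraries of 1 group lay on one side of CT and both of the other group on the opposite side. By the difference of the subset effect between diabetic and CT mice, the log2FC was -1.24 for Nr4a1 (adjusted p 0.312 by limma), -0.72 for Klf4 (adjusted p 0.633) and -0.998 for Pou2f2 (adjusted p 0.744), and none of the 3 passed after adjustment. In all 3 genes both diabetic Ly6Chigh libraries were below both CT libraries and both diabetic Ly6Clow libraries above them. Pou2f2 in T1DM Ly6Chigh and Nr4a1 in T1DM Ly6Clow MCs lay only 0.03 and 0.19 from the nearer CT library. The CT replicates were further apart, by 0.21 and 0.22. Between the models, over both subsets, the log2FC of T2DM against T1DM was -4.22 for Nr4a3 (adjusted p 0.00375), -1.89 for Nr4a2 (adjusted p 0.0897) and 0.32 for Spi1 (adjusted p 0.196), and Nr4a3 was the one that passed. In these 3 genes T1DM and T2DM lay on opposite sides of CT in both subsets. With at most 2 libraries in a group, no library could be tested as standing apart from its group.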

How the results depend on the processing

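Of the counts of members called, 71 of 90 did not move by over 1.5 times. Most of these belong to comparisons in which the main analysis called 0 members, where a count can move only by a gain. Each call of a member in the main analysis was lost under at least 1 alternative. Of 10 members, the CT subset test called 1 in the main analysis, 2 with the filter on low values (Spi1 and Nr4a3) and with a limit of 0.05, 0 under quantile normalization, without the variance trend and with the replicate block, and 0 to 0 with any CT library left out. The subset test over 8 libraries called 2 under quantile normalization, 2 without CT Ly6Clow replicate 1, 0 without T1DM and 2 without T2DM (range 0 to 2). T2DM against CT called 1 with a limit of 0.05. T2DM against T1DM called 0 with 1 added, without the variance trend, with the replicate block (adjusted p of Nr4a3 0.0111) and without either CT Ly6Clow library (range 0 to 1). The cause was not tested. Over all genes the CT subset test called 581, 1089 with the filter, 1936 with a limit of 0.05, and 0 without the trend, with the block or with 1 CT library left out. T2DM against CT called 49, 105 with a limit of 0.05, 9 without the trend, 13 with the block and 17 to 30 with libraries left out. T2DM against T1DM called 97, 253 with a limit of 0.05, 26 without the trend, 62 with the block and 57 without CT Ly6Clow replicate 1. With a limit of 0.05, T1DM against CT called 2 and the difference of the subset effect 3, against 0.

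The replicate numbers share only a number: the differences between replicates 1 and 2 correlated between the subsets with r = 0.0089 across 16486 genes and 0.077 across the 5228 with higher values.

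Of 900 tested log2FC of members, 846 kept direction and call and 35 changed sign. Quantile normalization shifted the median of all genes by 0.11 between the CT subsets and by 0.12 over 8 libraries. With it the CT subset log2FC turned to -0.11 in Nr4a1, -0.091 in Klf2 and -0.13 in Klf3, and that over 8 libraries to -0.087 in Klf2, -0.17 in Klf3 and -0.082 in Klf4. It also turned the subset effect of Klf2 to 0.0077 and the diabetic minus CT value of Klf6 in Ly6Clow to -0.017. Adding 1 turned Nr4a2 to 0.0054 (subset effect) and 0.040 (Ly6Chigh) and Nr4a3 to 0.0021 (Ly6Chigh). The block turned Nr4a2 in Ly6Clow to -0.14. Where leaving out libraries turned the sign, the log2FC ran from -0.067 to 0.20 in Pou2f2 (T1DM against CT), from -0.0026 to 0.15 in Klf4 (T2DM against CT), from -0.64 to 0.47 in Nr4a2, -0.35 to 0.27 in Klf2 and -0.25 to 0.13 in Klf3 (subset effect), from -1.29 to 1.152 in Nr4a2, -2.43 to 1.30 in Nr4a3, -0.49 to 0.31 in Klf2, -0.0031 to 0.29 in Klf3 and -0.18 to 0.12 in Spi1 (diabetic minus CT in Ly6Chigh), and from -0.65 to 0.68 in Nr4a2, -3.52 to 1.18 in Nr4a3, -0.14 to 0.035 in Klf2, -0.070 to 0.18 in Klf6, -0.00040 to 0.35 in Klf13 and -0.047 to 0.30 in Spi1 (the same in Ly6Clow). None of the 35 passed the limits. Of 300 differences without a test, 56 moved by more than the replicate spread. The depth is unknown, so low values such as those of Nr4a3 have no counting error attached.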
